A study of Rattus norvegicus with 12 samples.

Results

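The comparison described here set the hearts of obese ZSF1 rats given nicotinamide (NAM) against the hearts of lean ZSF1 rats that were given none. It rests on 8 of the 12 cardiac muscle samples of the series, 4 per group, chosen by their labels. The 4 untreated obese samples serve to place each gene. The lean group is the non-failing control. Both obese groups are described by the labels as diet-induced, whereas obesity of the ZSF1 strain is generally known as inherited through defective leptin receptor alleles. Treated rats drank 24 mM NAM from 8 to 20 weeks of age, and no lean rat was treated, so what NAM does in a lean heart was not measured. The labels number the samples within each group and name no batch. Nothing ties a number to an animal, so the p-values measure the spread between these samples.

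NAM is a form of vitamin B3 from which cells rebuild NAD+, the coenzyme that carries electrons from fuel oxidation to the respiratory chain. The heart makes most of its ATP in mitochondria, mainly by oxidising fatty acids, with ketone bodies, glucose and branched-chain amino acids as further fuels. A rodent ventricle contracts mostly with the fast alpha-myosin heavy chain (Myh6), and a shift towards the slow beta chain (Myh7) is a well-known mark of the stressed heart. Heart failure with preserved ejection fraction, for which the obese ZSF1 rat is a model, is a disorder of filling.

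Expression was given as TPM, the length-corrected share of a sample's transcripts, which keeps no sequencing depth. The depth behind each value is therefore unknown. Each sample had 14759 to 15120 genes with a value above 0. On the log2 scale and over kept genes, Pearson's r was 0.960 to 0.971 within groups and 0.946 to 0.964 between lean and treated samples. Genes encoded by mitochondrial DNA held 69.1% ± 1.96 (SD, n = 4) of all TPM in lean, 75.1% ± 0.376 in obese and 71.3% ± 1.69 in treated hearts. The share did not differ between treated and lean hearts beyond its spread (exact permutation test, 2-sided, p = 0.0857, adjusted p = 0.0857 over 3 tests, smallest possible 0.0286). A change in that share moves every other share, so each result is given on the deposited scale and after rescaling, in which each sample was divided by its median ratio to the average sample. All 8 cardiomyocyte markers were measured. They summed to 20821 to 24265 TPM in lean, 14611 to 16459 in untreated obese and 17888 to 20655 in treated hearts. The change between treated and lean hearts was negative for 7 of the 8 on both scales, with a median of -0.17 as deposited, -0.24 after rescaling and 0.05 after quantile normalization. Of them 2 were called lower as deposited (Myh6 and Myl3), 3 after rescaling (Tnni3 as well), and 0 higher. The lower calls were 25% and 37.5% of the markers, beside 1.03% and 1.63% of all genes. Treated hearts held 5184 TPM ± 307 of Tnnt2 and 38.2 TPM ± 4.47 of Ryr2, against 5892 ± 531 and 38.8 ± 3.10 in lean hearts (SD, n = 4). In bulk tissue, fewer cells of a type and less RNA per cell cannot be told apart.

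Few genes separated treated from lean hearts. Of 10185 genes tested with limma on log2(TPM + 1), 197 (1.93%) passed an adjusted p of 0.05 on the deposited scale, 92 higher (0.903%) and 105 lower (1.03%) in treated hearts. After rescaling 246 passed (2.42%), 80 higher (0.785%) and 166 lower (1.63%). The same model called 1787 genes (17.5%) between untreated obese and lean hearts as deposited and 139 (1.36%) after rescaling. Between treated and untreated obese hearts it called 3117 (30.6%) and 75 (0.736%). The 2 scales thus gave a very different number of calls wherever the untreated obese hearts entered, and a similar one between treated and lean hearts. In that comparison 174 genes were called on both scales, 71 higher and 103 lower. The split between directions moved with the handling of mitochondrial transcripts. With these genes removed before TPM were summed again, 754 genes were called, 646 higher and 108 lower, and the median change of all genes was 0.16 (log2) instead of 0.05. The number of calls also rested on single samples, and without treated replicate 4 it was 71 as deposited and 125 after rescaling.

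**Figure D1:**
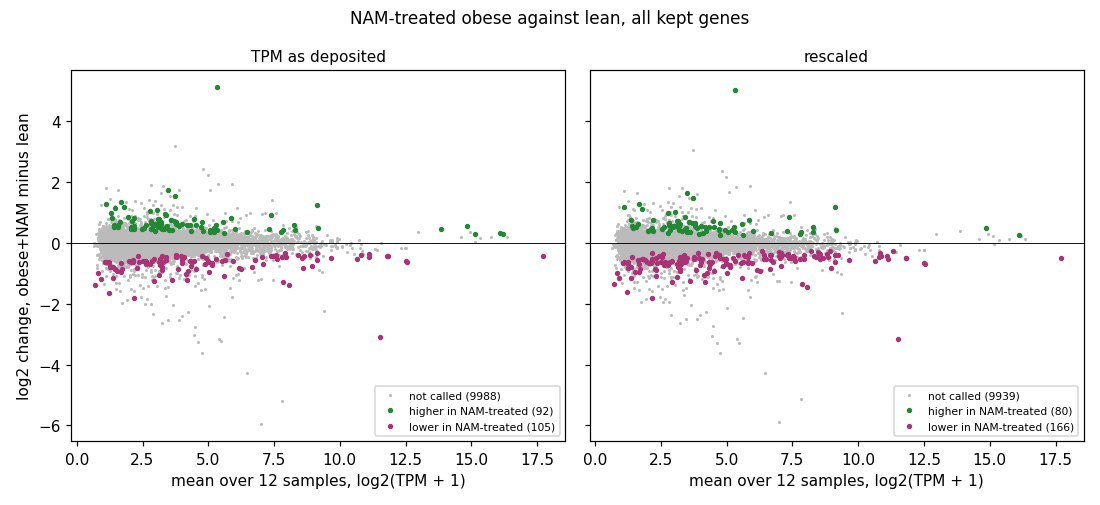
Log2 change between NAM-treated obese and lean hearts (vertical axis) against mean abundance over the 12 samples (horizontal axis, log2(TPM + 1)), one point per kept gene, as deposited on the left and rescaled on the right. Coloured points passed an adjusted p of 0.05 with limma, 92 higher and 105 lower as deposited and 80 higher and 166 lower after rescaling, and they cover the range from rare to the most abundant transcripts.

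A called gene was counted as left different if untreated obese hearts also differed from lean in the same direction, and as newly different if treated hearts also differed, in the same direction, from untreated obese hearts. As deposited, 100 genes were left different, 15 higher and 85 lower. They made up 50.8% of the calls between treated and lean hearts and 5.596% of those between untreated obese and lean hearts. Newly different were 89, 77 higher and 12 lower, 45.2% of the treated against lean calls and 2.86% of the treated against obese calls. After rescaling 54 were left different, 19 higher and 35 lower, which was 22.0% and 38.8% of the respective calls. Newly different were then 21, 3 higher and 18 lower, 8.54% and 28% of the respective calls. The classes can overlap, and 7 genes were in both as deposited and 3 after rescaling. After rescaling 174 called genes fell in neither class, since neither comparison with untreated obese hearts called them in the same direction. The comparisons share samples, so these counts follow from one another and are descriptions. On both scales, 38 genes were left different, 9 higher and 29 lower, and 12 were newly different, 3 higher and 9 lower.

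The cardiac myosin heavy chains were among the sarcomere genes left different. Myh6, the fast chain, was at 1032, 733, 779 and 620 TPM in lean hearts, at 223, 272, 217 and 198 in untreated obese hearts, and at 471, 508, 467 and 409 in treated hearts. The 3 groups did not overlap, and treated hearts stood between the others. Myh6 fell by 0.75 (log2, SE 0.14, limma adjusted p = 0.017) against lean as deposited and by 0.81 after rescaling, and was 1.03 higher than in untreated obese hearts as deposited (adjusted p = 0.003) and 0.70 higher after rescaling (0.042). Without treated replicate 3 or 4 its adjusted p against lean was 0.0517 or 0.0612 as deposited, and after rescaling it passed whichever sample was left out.

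Myh7, the slow chain, was at 333, 291, 325 and 397 TPM in lean hearts, at 614, 702, 479 and 384 in untreated obese hearts, and at 831, 745, 763 and 806 in treated hearts. It was highest in all 4 treated hearts, above every untreated obese one. The rise against lean was 1.23 (SE 0.16, limma adjusted p = 0.00225) as deposited and 1.16 after rescaling. Against untreated obese hearts Myh7 was 0.56 higher as deposited (adjusted p = 0.019) and 0.24 higher after rescaling (adjusted p = 0.49), so a difference between the obese groups was called on 1 scale only.

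The ratio of Myh7 to Myh6 does not depend on the scaling. It was 0.444 ± 0.137 in lean, 2.37 ± 0.367 in untreated obese and 1.71 ± 0.213 in treated hearts (SD, n = 4). The lowest treated value, 1.47, lay above the highest lean value, 0.640 (exact permutation test, 2-sided, p = 0.0286, the smallest 4 against 4 samples allow, adjusted p = 0.0429). These paralogs share much of their sequence, and reads common to both could have been divided in ways the table does not show.

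A minority of sarcomere genes passed the test. Of 20 measured thick, thin and Z-disc filament genes, Myh6 and Myh7 among them, 1 was called higher and 3 lower as deposited, and 1 and 5 after rescaling. That was 5% and 15% as deposited, beside 0.903% and 1.03% of all genes. After rescaling it was 5% and 25%, beside 0.785% and 1.63%. The list's median change was -0.17 as deposited and -0.23 after rescaling, beside 0.05 and 0.00 over all genes, and 0.06 after quantile normalization. The cardiomyocyte markers given above include Myh6 and Myl3 of this list, so they are not a separate measure of cell content here. The part of cell content in these counts was not tested. Myl3, the ventricular essential light chain, held 2549, 2123, 2060 and 2146 TPM in lean and 1635, 1618, 1654 and 1759 in treated hearts. No treated heart reached a lean value, and the fall was 0.41 (SE 0.07, adjusted p = 0.0135). Untreated obese hearts were lower still as deposited, at 1427 TPM ± 66.5. After rescaling the Myl3 change from lean was -0.47 in treated and -0.37 in untreated obese hearts. Rescaled, the obese groups did not differ by the test (limma adjusted p = 0.515). Cardiac actin (Actc1), at 3337 ± 237 TPM in lean and 3337 ± 442 in treated hearts, was not called (adjusted p = 0.985). The muscle creatine kinase Ckm, chosen after its values were seen, fell by 0.46 (adjusted p = 0.0359). That call was lost in 8 of 12 fits with 1 sample left out as deposited and in 4 after rescaling.

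**Figure D2:**
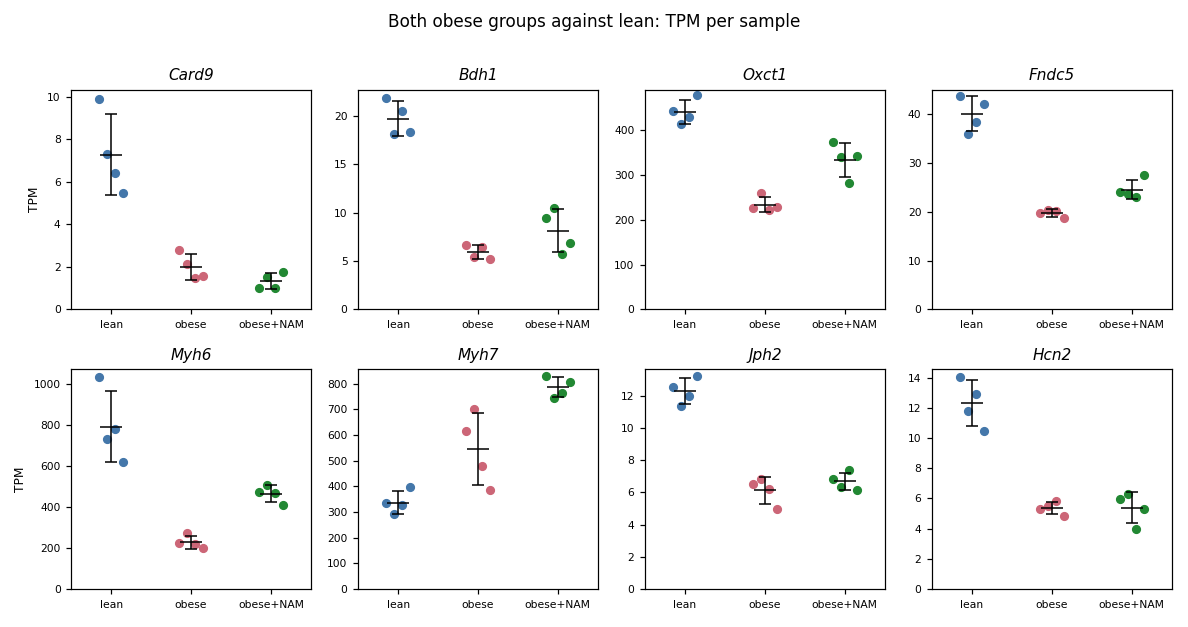
TPM in each of the 4 lean, 4 untreated obese and 4 NAM-treated obese samples for 8 genes that differed from lean in both obese groups, with the mean and SD as bars. Card9, Bdh1, Oxct1, Fndc5, Myh6, Jph2 and Hcn2 were lower and Myh7 higher in both obese groups than in lean hearts, and no treated value overlapped a lean one.

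Bdh1 and Oxct1, enzymes of ketone body use, were lower in both obese groups than in lean hearts. Bdh1, the mitochondrial enzyme that oxidises the ketone body beta-hydroxybutyrate, was at 21.9, 18.1, 20.5 and 18.4 TPM in lean hearts. Untreated obese hearts held 6.69, 5.41, 6.43 and 5.17, and treated hearts 9.45, 10.5, 5.75 and 6.85. No obese heart of either group reached a lean value, and the 2 obese groups overlapped. The fall was 1.21 (SE 0.15, adjusted p = 0.00215) as deposited and 1.26 after rescaling, with the call kept whichever sample was left out.

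Oxct1, the enzyme that activates ketone bodies for oxidation outside the liver, was at 443, 415, 430 and 478 TPM in lean and 374, 340, 282 and 342 in treated hearts. Untreated obese hearts, at 222 to 259 TPM, lay below both. The fall against lean was 0.41 (SE 0.09, adjusted p = 0.0395) as deposited and 0.47 after rescaling (adjusted p = 0.015). As deposited the call was lost in 9 of the 12 fits that left out 1 sample, with the adjusted p up to 0.110, and after rescaling in none.

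Of the 22 measured genes of ketone body and branched-chain amino acid catabolism, 3 (13.6%) were called lower and 0 higher on both scales. Of all genes, 1.03% were called lower as deposited and 1.63% after rescaling. The third list member called was Bckdha, a subunit of the branched-chain ketoacid dehydrogenase, at 26.0 TPM ± 4.88 in lean and 16.3 ± 1.83 in treated hearts (adjusted p = 0.0301). That call was lost in 5 of 12 fits with 1 sample left out. The list's median was -0.06 as deposited, -0.13 after rescaling and 0.04 with mitochondrial transcripts removed.

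A pair of membrane genes also stayed at the obese level. Hcn2 encodes a pacemaker-type cation channel, and was at 14.1, 11.8, 12.9 and 10.5 TPM in lean hearts, 5.27, 5.51, 5.83 and 4.84 in untreated obese and 5.99, 6.28, 3.94 and 5.31 in treated hearts. Jph2, junctophilin-2, holds the T-tubule against the sarcoplasmic reticulum. It was at 12.6, 11.4, 12.0 and 13.3 TPM in lean, 6.53, 6.84, 6.23 and 4.95 in untreated obese and 6.86, 6.34, 7.37 and 6.18 in treated hearts. For both genes the obese groups overlapped each other and no lean heart. Hcn2 fell by 1.07 (SE 0.13, adjusted p = 0.0018) and Jph2 by 0.79 (SE 0.10, adjusted p = 0.00225) against lean, and both calls held in all 12 fits with 1 sample left out, on both scales.

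The largest fall among the named genes belonged to Card9, an adaptor of innate immune receptors. It was at 9.88, 7.30, 6.39 and 5.48 TPM in lean, 2.79, 2.16, 1.49 and 1.56 in untreated obese and 1.01, 1.52, 1.01 and 1.78 in treated hearts. The fall was 1.81 (SE 0.18, adjusted p = 0.000798). Sctr, the secretin receptor, was at 1.40, 1.75, 1.26 and 2.81 TPM in lean hearts and at most 0.140 TPM in any obese heart of either group. It fell by 1.39 (SE 0.15, adjusted p = 0.000883), but it entered the test through its lean values only, since no treated value reached 1 TPM. Of 19 measured macrophage markers, limma called 0 and none had an unadjusted p under 0.05. Their summed level was 103 to 251 TPM in lean and 135 to 155 TPM in treated hearts.

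Further genes called as left different on both scales, chosen for mention after their values were seen, were Fndc5, the precursor of irisin, at 40.1 TPM ± 3.54 in lean, 19.8 ± 0.742 in untreated obese and 24.6 ± 2.03 in treated hearts. Coq10a, a coenzyme Q binding protein, was at 44.2 ± 2.92, 20.5 ± 2.42 and 28.5 ± 5.29 TPM in the same order. Txn2, mitochondrial thioredoxin, was at 43.0 ± 6.35, 21.2 ± 3.37 and 27.7 ± 2.40 TPM. The peptide hormone gene Apln was at 4.87 ± 0.958, 1.95 ± 0.175 and 2.75 ± 0.357 TPM (SD, n = 4 each). In each of these genes the treated mean lay nearer to the untreated obese than to the lean mean. The Fndc5 call held with any 1 sample left out, whereas as deposited those of Coq10a, Txn2 and Apln were lost in 5, 6 and 4 of 12 such fits.

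A minority of nuclear respiratory chain genes were called lower in treated than in lean hearts, and none was called higher on either of these scales. Of 36 measured subunits of complex I, 6 were called lower and 0 higher as deposited and 14 and 0 after rescaling. Of 35 subunits of complexes III and IV and ATP synthase, 8 were lower and 0 higher as deposited and 13 and 0 after rescaling. That was 16.7% and 22.9% of these lists as deposited, beside 1.03% of all genes called lower. After rescaling it was 38.9% and 37.1%, beside 1.63%. The median change was -0.24 and -0.14 as deposited, and it was negative on every scale tried, at -0.13 and -0.04 with mitochondrial transcripts removed. In untreated obese hearts the median change from lean was -0.43 for both lists as deposited, where 33 and 34 members were called lower. After rescaling it was -0.17 for both, where 0 and 1 members were called lower. Between untreated obese and lean hearts, 17.5% of all genes were called in either direction as deposited and 1.36% after rescaling. The summed cardiomyocyte markers were lower in treated hearts as well, and their part in these counts was not tested.

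Ndufb7, a complex I subunit, was at 129, 88.0, 87.4 and 86.4 TPM in lean, 69.2, 56.6, 54.6 and 57.3 in untreated obese and 53.4, 56.3, 53.1 and 51.3 in treated hearts. All 8 obese hearts lay under every lean one, and lean replicate 1 stood above the other lean hearts. The fall was 0.84 (SE 0.12, adjusted p = 0.00509) and held without any 1 sample. Ndufs8, an iron-sulfur subunit of the same complex, fell by 0.60 (adjusted p = 0.0102), from 80.6 TPM ± 10.5 to 52.8 ± 2.93. Cox6a2, the muscle form of a cytochrome c oxidase subunit, was at 832, 686, 669 and 666 TPM in lean and 465, 545, 437 and 462 in treated hearts (change -0.58, adjusted p = 0.00789). Uqcrq of complex III fell by 0.76 (adjusted p = 0.0128) and its adjusted p was 0.0502 without treated replicate 4. Cox8b fell by 0.43 (adjusted p = 0.00675), from 4376 TPM ± 323 to 3250 ± 125, but did not fall after quantile normalization, where the change was 0.05.

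Mitochondrially encoded subunits were called in both directions. Of 13, 5 were called higher and 1 lower as deposited and 2 and 1 after rescaling, with a median change of 0.28 and 0.22. That was 38.5% and 7.69% as deposited, beside 0.903% and 1.03% of all genes. After rescaling it was 15.4% and 7.69%, beside 0.785% and 1.63%. Mt-nd4 was at 19927, 22677, 24533 and 22355 TPM in lean, 33548, 38180, 29931 and 32284 in untreated obese and 34385, 32658, 29802 and 33633 in treated hearts. Its rise was 0.55 (SE 0.08, adjusted p = 0.00513) as deposited and 0.48 (adjusted p = 0.0155) after rescaling, and the obese groups overlapped. Mt-co1 rose by 0.31 and 0.25 on these scales. After rescaling that call was lost in 10 of 12 fits with 1 sample left out. Quantile normalization, which gives every sample the same set of values, left none of the 13 called.

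**Figure D3:**
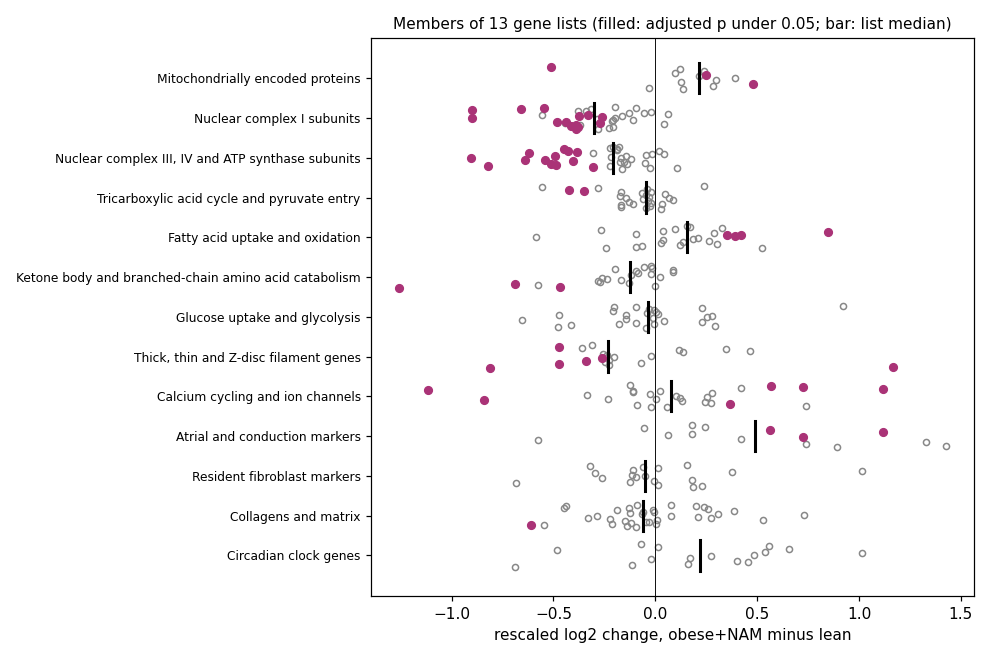
Rescaled log2 change between NAM-treated obese and lean hearts (horizontal axis) for the measured members of 13 gene lists (vertical axis), one circle per gene, filled where the limma adjusted p was under 0.05, with the list median as a bar. Nuclear respiratory chain subunits lie mostly left of 0, with 14 of 36 and 13 of 35 called lower, beside 1.63% of all genes. The 4 called fatty acid genes lie right of 0, where 0.785% of all genes were called.

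Mt-atp8 was the exception among mitochondrially encoded genes, and it was newly different. It was at 247253, 253603, 241561 and 236249 TPM in lean, 213800, 192844, 243054 and 222011 in untreated obese and 165061, 201732, 186784 and 166883 in treated hearts. All treated hearts lay below all lean ones, and 1 of them, replicate 2, overlapped the untreated obese range. The fall was 0.45 (SE 0.07, adjusted p = 0.0104) as deposited and 0.51 after rescaling (adjusted p = 0.032). The second call was lost in 7 of 12 fits with 1 sample left out. The ratio of Mt-atp8 to Mt-atp6, which no scaling alters, was 3.11 ± 0.196 in lean, 2.71 ± 0.354 in untreated obese and 2.01 ± 0.198 in treated hearts (SD, n = 4). The highest treated ratio was 2.26 and the lowest lean ratio 2.87 (exact permutation test, 2-sided, p = 0.0286, adjusted p = 0.0429). These genes overlap on the mitochondrial genome and Mt-atp8 is very short, so its TPM depends on how reads were assigned and on the effective length, which are not stated.

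Some genes of fatty acid oxidation were higher in treated than in lean hearts. Of 25 measured genes of uptake and oxidation, 5 were called higher and 0 lower as deposited, and 4 and 0 after rescaling, which is 20.0% and 16.0%, beside 0.903% and 0.785% of all genes called higher. The list's median change was 0.22 as deposited and 0.15 after rescaling. In untreated obese hearts the median change from lean was -0.18 as deposited and 0.08 after rescaling, so that its sign depended on the scale.

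Decr1, which prepares unsaturated fatty acids for beta-oxidation, was at 131, 112, 108 and 109 TPM in lean, 176, 175, 130 and 154 in untreated obese and 245, 178, 218 and 231 in treated hearts. It rose by 0.91 (SE 0.12, adjusted p = 0.00225) and held in every fit with 1 sample left out. Ech1, an isomerase of the same pathway chosen after its values were seen, was at 251 TPM ± 26.9 in lean, 296 ± 12.5 in untreated obese and 378 ± 46.9 in treated hearts (adjusted p = 0.0106). Acot2, a mitochondrial thioesterase that releases free fatty acids from their CoA esters, was at 49.7, 37.5, 42.2 and 43.6 TPM in lean and 79.0, 73.4, 76.9 and 75.3 in treated hearts. The rise of Acot2 was 0.81 (SE 0.10, adjusted p = 0.00215), and untreated obese hearts, at 44.0 to 59.2 TPM, overlapped the lean ones only. After rescaling Acot2 was left different, since untreated obese hearts exceeded lean ones by 0.50 (limma adjusted p = 0.022). Acot2 has a close paralog, Acot1, so reads common to both could be divided between them.

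Hadha and Hadhb encode both subunits of the mitochondrial trifunctional protein, which carries out the last steps of long-chain beta-oxidation. Hadha was at 158, 134, 139 and 138 TPM in lean, 138, 154, 116 and 127 in untreated obese and 203, 176, 200 and 201 in treated hearts. Hadhb was at 542, 472, 494 and 528 TPM in lean, 498, 565, 458 and 496 in untreated obese and 758, 619, 727 and 751 in treated hearts. In both genes treated hearts lay above all 8 others, and lean and untreated obese hearts overlapped. Hadha rose by 0.46 (SE 0.09, adjusted p = 0.0292) and Hadhb by 0.48 (SE 0.09, adjusted p = 0.0135) as deposited, and by 0.39 and 0.42 after rescaling. The Hadha call was lost in 6 of 12 fits with 1 sample left out as deposited and in 3 after rescaling, and the Hadhb call was lost without treated replicate 4 (adjusted p = 0.056), as deposited only. Against untreated obese hearts both were called as deposited (adjusted p = 0.0034 and 0.0033) and neither after rescaling (0.17 and 0.18).

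The genes start back to back on opposite strands, so that their windows of 250 bases before the start share 200 bases. The stretch is shown because both genes moved together. It is taken from RefSeq on the GRCr8 assembly, chr6:31907551-31907800, read in the direction of Hadha, with the shared bases in capitals.
Hadha-Hadhb: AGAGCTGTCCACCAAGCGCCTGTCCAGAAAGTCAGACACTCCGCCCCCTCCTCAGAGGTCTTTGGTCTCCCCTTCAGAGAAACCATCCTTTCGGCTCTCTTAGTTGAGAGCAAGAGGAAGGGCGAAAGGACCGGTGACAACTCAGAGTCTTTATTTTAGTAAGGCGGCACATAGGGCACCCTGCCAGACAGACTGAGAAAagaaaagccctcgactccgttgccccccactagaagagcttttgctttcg
The letters AGGTCA, the half-site recognised by many nuclear receptors of lipid metabolism, were searched on both strands of the windows of 250 bases. They were in neither gene's window and in 14.1% of all 33469 windows of this length, which says only that these letters are not in these windows.

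Other fuel genes held few calls. Hadh, chosen after its values were seen, rose by 0.42 (adjusted p = 0.0395), a call lost in 8 of 12 fits with 1 sample left out. Of 26 genes of glucose uptake and glycolysis limma called 0, with 9 at an unadjusted p under 0.05 and a median of 0.03 as deposited and -0.03 after rescaling. The share of all genes at that unadjusted level is not given, here or below. Such counts therefore do not show whether a list stood out from other genes. Of 27 genes of the tricarboxylic acid cycle and pyruvate entry, 0 were called as deposited, with 3 at an unadjusted p under 0.05, and 2 were lower after rescaling. Those 2 were 7.41% of the list, beside 1.63% of all genes called lower after rescaling. In these lists the untreated obese medians were -0.36 and -0.44 as deposited, where 15 and 24 members were called lower than lean. Of all genes, 17.5% were called in that comparison in either direction.

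NAD metabolism, the pathway that NAM feeds, held 2 calls among 19 measured genes as deposited. That was 1 higher and 1 lower, 5.26% each, beside 0.903% and 1.03% of all genes. Nadk2, the mitochondrial NAD kinase, was at 14.7, 13.99, 14.6 and 14.3 TPM in lean, 12.9, 17.3, 13.7 and 15.4 in untreated obese and 22.9, 19.2, 23.4 and 24.2 in treated hearts. All treated hearts were above all others, and the rise against lean was 0.60 (SE 0.10, adjusted p = 0.0104). Parp3, an enzyme that consumes NAD+, fell by 0.43 (adjusted p = 0.0242), from 10.4 TPM ± 0.979 to 7.44 ± 0.305, and was at 7.63 ± 0.263 in untreated obese hearts. Nadk2 and Parp3 were singled out after their values were seen. Nampt, the rate-limiting enzyme that turns NAM back into NAD+, was at 45.7 TPM ± 5.29 in lean and 42.6 ± 4.43 in treated hearts (change -0.10, SE 0.12, adjusted p = 0.73). Nmrk2, a nicotinamide riboside kinase, was at 5.83 ± 1.16 and 3.86 ± 0.868 TPM (adjusted p = 0.139). Nnmt, which methylates NAM for disposal, stayed under the filter, with at most 1.80 TPM in any treated heart.

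Chrm2, Kcnj5 and Hcn4 were higher in treated than in lean hearts, and Hcn2, described above, was lower. Chrm2, the muscarinic M2 receptor that transmits vagal input to heart cells, was at 14.8, 13.9, 14.5 and 11.1 TPM in lean, 9.09, 10.9, 9.72 and 11.7 in untreated obese and 21.7, 18.7, 24.4 and 21.2 in treated hearts. Treated hearts lay above all 8 others. The rise against lean was 0.63 (SE 0.11, adjusted p = 0.0141), and 0.57 after rescaling. Against untreated obese hearts it was 0.99 (adjusted p = 0.003) and 0.68 (adjusted p = 0.016), so Chrm2 was newly different on both scales. Without treated replicate 3 its adjusted p against lean was 0.0522 as deposited. With treated replicate 1 left out, no gene was newly different after rescaling, Chrm2 included.

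Kcnj5, a subunit of the potassium channel that this receptor opens, was at 5.08, 6.04, 7.51 and 5.13 TPM in lean, 5.18, 6.64, 4.56 and 6.62 in untreated obese and 11.2, 8.73, 11.5 and 12.5 in treated hearts. It rose by 0.79 (SE 0.15, adjusted p = 0.0164), with 0.0558 and 0.0596 without treated replicates 3 and 4. Its partner subunit Kcnj3 was at 8.19 TPM ± 1.99 in lean and 11.6 ± 0.574 in treated hearts and was not called (adjusted p = 0.134). Hcn4, the main pacemaker channel, was at 1.12, 0.657, 1.86 and 1.37 TPM in lean, 2.52, 2.13, 1.71 and 2.09 in untreated obese and 4.70, 4.01, 4.63 and 2.99 in treated hearts. The rise of Hcn4 was 1.19 (SE 0.17, adjusted p = 0.00401) and held with any 1 sample left out. Kcnj5 and Hcn4 exceeded untreated obese hearts on the deposited scale (adjusted p = 0.0035 and 0.0096) and were not called there after rescaling (0.095 and 0.21).

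Atrial tissue carries more of these transcripts than ventricle, so atrial markers are given beside them. Of 14 measured atrial and conduction markers, 3 were called higher on both scales (Hcn4, Kcnj5 and Dkk3) and 0 lower. That was 21.4%, beside 0.903% of all genes called higher as deposited and 0.785% after rescaling. The list's median change was 0.55 as deposited and 0.49 after rescaling, with 12 of 14 members positive. The list's summed level was 276 to 575 TPM in lean, 365 to 882 in untreated obese and 383 to 1372 in treated hearts. The high end was treated replicate 1. Myl7, the atrial light chain, was at 192 TPM there and at 2.13, 2.89 and 2.49 TPM in the other treated hearts, against 0.677 to 8.50 TPM in lean hearts. Sln, atrial sarcolipin, was at 381 TPM there and 10.95 to 30.8 TPM in the other treated hearts, against 10.8 to 48.0 in lean hearts. Untreated obese hearts were uneven as well, at 30.4, 2.17, 5.30 and 99.3 TPM of Myl7 and 53.8, 15.9, 33.4 and 206 TPM of Sln. The part of atrial tissue in the comparisons with that group was not tested. In the 3 treated hearts with Myl7 and Sln at lean levels, Chrm2 was at 18.7 to 24.4 TPM and Hcn4 at 2.99 to 4.63 TPM. Without treated replicate 1 the rise was 0.63 for Chrm2 (adjusted p = 0.0371), 0.78 for Kcnj5 (0.0418) and 1.13 for Hcn4 (0.0139), while that of Dkk3 was 0.54 (0.0979). Nppa, the atrial natriuretic peptide gene and a load marker in ventricle, was at 453 TPM in that heart and 135 to 186 in the other treated hearts, against 40.4 to 110 in lean hearts, and was not called (adjusted p = 0.212). Nppb, another load marker, was at 285 TPM ± 123 in lean and 186 ± 26.7 in treated hearts, and was not called (adjusted p = 0.417). Of 10 measured genes of load and the fetal program, 1 (10%) was called higher and 0 lower on both scales. The list's median change was -0.22 as deposited and -0.27 after rescaling.

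Genes of calcium handling were called in both directions. Of 26 genes of calcium cycling and ion channels, 4 were called higher and 2 lower on both scales, with 10 at an unadjusted p under 0.05 as deposited. That was 15.4% and 7.69%, beside 0.903% and 1.03% of all genes as deposited and 0.785% and 1.63% after rescaling. The fourth higher gene was Casq2, the calcium buffer of the sarcoplasmic reticulum, at 284 TPM ± 16.7 in lean and 384 ± 33.0 in treated hearts (adjusted p = 0.0395, lost in 8 of 12 fits with 1 sample left out). Atp2a2, the calcium pump that drives relaxation, was at 1235, 975, 1074 and 1023 TPM in lean, 687, 803, 564 and 614 in untreated obese and 1266, 1014, 1074 and 1082 in treated hearts. Treated and lean hearts overlapped, with a change of 0.04 (SE 0.11, adjusted p = 0.884), and untreated obese hearts lay below both. Pln, the pump's inhibitor, was at 1041 TPM ± 40.8 in lean and 1132 ± 84.0 in treated hearts (adjusted p = 0.43).

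**Figure D4:**
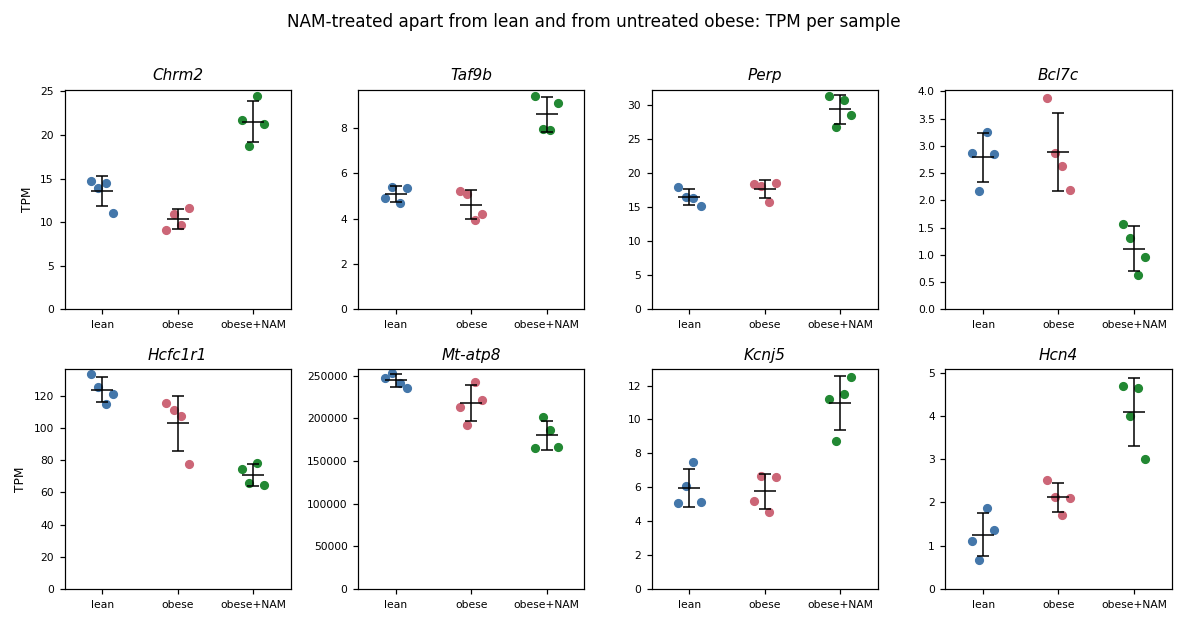
TPM in each lean, untreated obese and NAM-treated obese sample (4 each) for 8 genes that differed between treated and lean and between treated and untreated obese hearts, with the mean and SD as bars. Chrm2, Taf9b, Perp, Kcnj5 and Hcn4 were higher and Bcl7c, Hcfc1r1 and Mt-atp8 lower in treated than in lean hearts, and the differences of Kcnj5 and Hcn4 from untreated obese hearts passed on the deposited scale only. In Mt-atp8 1 treated value lies within the untreated obese range.

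The other genes newly different on both scales have varied roles. Perp, a membrane protein induced by p53, was at 18.0, 16.5, 16.3 and 15.2 TPM in lean, 18.4, 18.1, 15.8 and 18.5 in untreated obese and 31.4, 26.8, 30.7 and 28.6 in treated hearts. It rose by 0.79 (SE 0.09, adjusted p = 0.000883), with a tight spread and a call that held in every fit with 1 sample left out. After rescaling Perp rose by 0.73 and was also left different, since untreated obese hearts exceeded lean ones by 0.34 (limma adjusted p = 0.040). Taf9b, a subunit of the general transcription machinery, was at 5.09 TPM ± 0.350 in lean, 4.62 ± 0.631 in untreated obese and 8.60 ± 0.775 in treated hearts (adjusted p = 0.00744).

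Bcl7c, a component of chromatin remodelling complexes, was at 2.88, 2.18, 3.26 and 2.85 TPM in lean, 3.87, 2.87, 2.63 and 2.19 in untreated obese and 1.56, 1.31, 0.635 and 0.960 in treated hearts. It fell by 0.85 (SE 0.16, adjusted p = 0.0201), and the call was lost in 4 of 12 fits with 1 sample left out on either scale. Hcfc1r1, a regulator of the host cell factor HCFC1, was at 124 TPM ± 7.69 in lean, 103 ± 17.3 in untreated obese and 70.9 ± 6.60 in treated hearts (adjusted p = 0.00509). The names Taf9b and Hcfc1r1 were picked after their values were seen, and 5 of the 12 genes carry placeholder symbols. As counted over all genes, no gene was newly different after rescaling once treated replicate 1 was left out, and 26 were as deposited without treated replicate 4.

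Other large rises belonged to genes that exceeded untreated obese hearts on the deposited scale alone. Ptgfr, the receptor of prostaglandin F2-alpha, was at 6.54, 7.75, 5.98 and 4.17 TPM in lean, 7.16, 16.5, 6.34 and 14.4 in untreated obese and 15.2, 17.0, 26.0 and 20.2 in treated hearts. It rose by 1.53 (SE 0.29, adjusted p = 0.0242), and the call was lost in 5 of 12 fits with 1 sample left out. Sphkap, an anchor protein of protein kinase A, was at 4.67 TPM ± 0.352, 5.99 ± 0.949 and 11.1 ± 2.21 in lean, untreated obese and treated hearts (adjusted p = 0.00215), and after rescaling it was left different. Pik3c2g, a class II phosphoinositide kinase, was at 0.325 ± 0.0779, 0.942 ± 0.356 and 2.18 ± 0.209 TPM in that order (adjusted p = 0.000858). Pik3c2g entered the test through its treated values only, since no lean value reached 1 TPM. It was also left different on both scales, since untreated obese hearts exceeded lean ones by 0.53 as deposited and 0.64 after rescaling. Prkag2, a regulatory subunit of AMP-activated kinase picked after its values were seen, was at 4.63 ± 0.758, 5.47 ± 0.487 and 8.20 ± 0.356 TPM (adjusted p = 0.00502).

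Among falls that were larger in treated than in untreated obese hearts by their means, Crym, a thyroid hormone binding protein, was at 10.6 TPM ± 0.847 in lean, 5.26 ± 1.56 in untreated obese and 4.01 ± 1.54 in treated hearts (change against lean -1.26, adjusted p = 0.0114). Hopx, a homeodomain regulator of cardiac growth, was at 24.4 ± 2.41, 16.6 ± 4.72 and 12.7 ± 3.31 TPM (adjusted p = 0.0335). Ckb, brain-type creatine kinase, was at 11.7 ± 2.62, 7.44 ± 0.419 and 5.92 ± 1.52 TPM (adjusted p = 0.0153). None of the 3 was called between treated and untreated obese hearts (adjusted p = 0.24, 0.18 and 0.15). As deposited the Hopx call against lean was lost in 8 of 12 fits with 1 sample left out, the Ckb call in 2 and the Crym call in none.

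Several energy genes that were lower in untreated obese hearts as deposited could not be separated from lean in treated hearts. Prkaa2, a catalytic subunit of AMP-activated kinase, was at 22.9, 21.2, 23.0 and 21.1 TPM in lean, 9.63, 13.95, 10.1 and 12.4 in untreated obese and 22.1, 16.9, 21.3 and 24.0 in treated hearts (change -0.07, SE 0.12, adjusted p = 0.814). Ppara, the nuclear receptor that drives fatty acid oxidation genes, was at 8.31 TPM ± 0.961, 4.54 ± 0.640 and 8.13 ± 0.468 in the same order (change -0.02, SE 0.11, adjusted p = 0.94). Slc2a4, the insulin-responsive glucose transporter, was at 70.5, 61.7, 65.4 and 56.0 TPM in lean, 33.4, 32.1, 24.5 and 27.0 in untreated obese and 59.0, 57.2, 37.0 and 39.7 in treated hearts. A pair of treated hearts lay at the lean level and a pair between the groups, and the change of -0.41 had an SE of 0.15 (adjusted p = 0.201). Hexokinase 2 (Hk2) spread as widely, at 7.54, 10.9, 5.29 and 5.33 TPM in treated and 7.78 to 10.6 TPM in lean hearts (adjusted p = 0.365). A test that misses the threshold does not show that treated and lean hearts were alike.

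**Figure D5:**
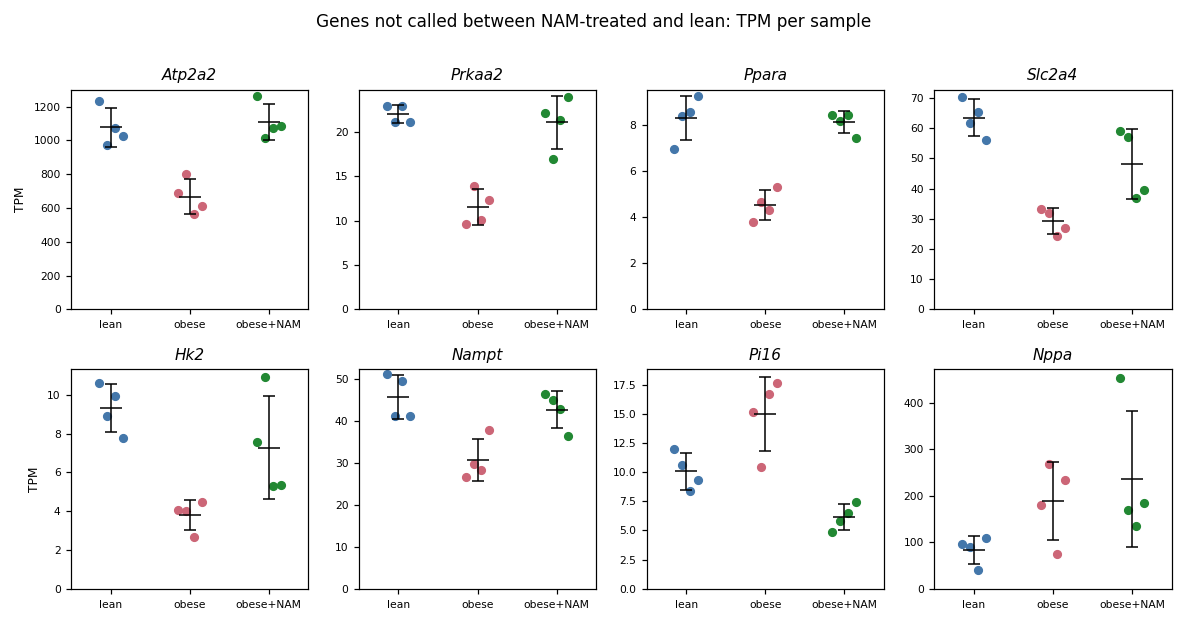
TPM in each lean, untreated obese and NAM-treated obese sample (4 each) for 8 genes that did not pass the test between treated and lean hearts, with the mean and SD as bars. Atp2a2, Prkaa2, Ppara and Nampt overlap with lean, Slc2a4 and Hk2 spread from the lean range down towards the untreated obese one, Pi16 lies below the lean range and Nppa has 1 treated heart at 453 TPM.

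Matrix genes and most markers of other cell types were not called. Of 35 collagens and matrix genes 0 were called as deposited, with 9 at an unadjusted p under 0.05, and 1 was lower after rescaling (Col4a1). That was 2.86%, beside 1.63% of all genes called lower after rescaling. Col1a1 was at 4.16 TPM ± 0.385 in lean and 3.99 ± 0.157 in treated hearts (adjusted p = 0.895), and Col3a1 at 34.4 ± 3.03 and 32.5 ± 1.89 (adjusted p = 0.842). Pi16, a marker of resident fibroblasts, was at 12.0, 10.6, 8.40 and 9.30 TPM in lean, 15.1, 10.5, 16.7 and 17.7 in untreated obese and 4.86, 5.83, 6.46 and 7.48 in treated hearts. Treated hearts lay under every lean one, as 10.9% of all kept genes did in one direction or the other, and the change of -0.63 missed the threshold (adjusted p = 0.0708). None of 19 fibroblast, 21 endothelial or 12 smooth muscle and pericyte markers was called on either scale, with 2, 3 and 2 at an unadjusted p under 0.05 as deposited. Fibroblast markers summed to 633 to 691 TPM in lean and 560 to 703 TPM in treated hearts. The adipocyte hormone gene Adipoq was at 3.06 to 3.50 TPM in lean and 3.31 to 5.75 TPM in treated hearts, and Plin1, the coat protein of fat cell droplets, was at most 0.0861 TPM in any of these.

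Of 16 clock genes limma called 0, with 4 at an unadjusted p under 0.05 and a median change of 0.28 as deposited. Dbp, an output gene of the clock, was at 12.8, 11.1, 10.2 and 0.984 TPM in lean and 18.3, 16.4, 15.05 and 12.8 TPM in treated hearts (adjusted p = 0.344). Pdk4, the kinase that holds back pyruvate oxidation and follows feeding state, was at 149, 47.1, 29.7 and 220 TPM in lean and 78.1, 22.1, 78.7 and 84.3 TPM in treated hearts (adjusted p = 0.75). The sources used here do not give the time of day of sampling.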

How the data were processed

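Total RNA of cardiac muscle was sequenced from strand-specific libraries, per the labels' protocols. The authors deposited TPM for 17602 genes, made on Rnor_6.0 and with limma named, per the submitters' processing notes. The sources used here give no aligner, quantifier or use of strand. For 498 genes the treated columns carry the mark of a failed lookup instead of a value. They were left out, and 30 of them had a lean mean of at least 1 TPM. Where counting ignores strand, overlapping and antisense genes cannot be told apart.

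A gene was kept if 4 or more of the 8 lean and treated columns held 1 TPM or more (10185 genes). Values were analysed as log2(TPM + 1), so changes of low genes are understated. limma 3.58.1 in R 4.3.3 fitted 3 group means over all 12 samples (lmFit, eBayes with trend and robust, statmod 1.5.0). Tests were 2-sided with Benjamini-Hochberg adjustment over all kept genes and a threshold of 0.05. Adjusted p of genes come from limma on the deposited scale unless stated. Rescaled values were divided by the median of ratios to the geometric mean. A left-out fit drops 1 of the 12 samples. For 2 ratios and 1 share, exact permutation tests that enumerate every split were run in Python 3.11.15 and adjusted over these 3. The fit was tested on simulated data.

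Named genes were the largest called changes without overlap, up to 3 members of lists with at least 3 calls, and 30 genes fixed by name, of which Cd36 had no row and Nnmt, Acot1 and Lepr fell under the filter. Placeholder symbols were passed over, and some results are not reported here. Of list members outside this rule, Mt-co1, Casq2, Kcnj3, Actc1, Pln, Tnnt2, Ryr2, Myl7, Sln, Adipoq and Plin1 were picked after their values were seen. For the 73 symbols on more than 1 row the most abundant row was used. The members, the 40 gene lists and the rules were chosen with earlier results of these data known. Alternatives were no filter, pseudocounts of 0.1 and 5, a mean of at least 5 TPM, a filter over all samples, removal of mitochondrial transcripts, quantile normalization, eBayes without trend and robust, a replicate block, a fit to the 8 samples and each sample left out. Promoter sequence came from RefSeq on GRCr8, another assembly than that of the table, and was matched by symbol.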

Additional observations from a re-analysis of the deposited data

Results flagged for a closer look

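In 142 groups of 4 samples (lean and treated, for the 68 named genes and 3 ratios or shares), 10 had a highest or lowest sample whose gap to the next took up more of the group's range than Dixon's critical value for 4 samples allows. Chance flags about 1 in 20 groups. Lean replicate 1 was the high sample for Ndufb7 (129.174 TPM), Decr1 (131.281 TPM) and Cox6a2 (831.832 TPM), and the low one for Col1a1 (3.58121 TPM) and for the mitochondrially encoded share of TPM (66.2166%). Lean replicate 4 was low for Ppp1r3d (4.878 TPM). Treated replicate 1 was high for Nppa (452.884 TPM) and low for Col1a1 (3.75437 TPM), and treated replicate 2 was low for Hadha (175.706 TPM) and Pdk4 (22.1151 TPM). Without lean replicate 1, Ndufb7 and Cox6a2 stayed lower and Decr1 stayed higher in treated hearts past the threshold.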

How the results depend on the processing

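As deposited, 197 genes were called between treated and lean hearts. The count was 131 with no filter, 754 without mitochondrially encoded genes and 71 to 192 with 1 sample left out. After rescaling 246 were called, 148 with no filter and 103 to 295 with 1 sample left out. Genes left different numbered 100 as deposited, 45 without mitochondrially encoded genes, 41 after quantile normalization and 41 to 86 with 1 sample left out. After rescaling they were 54, with 30 under no filter, 34 under eBayes without trend and robust, 34 with the replicate block and 19 to 71 with 1 sample left out. Newly different genes numbered 89 as deposited, 49 with no filter, 49 with the replicate block, 15 after quantile normalization and 26 to 111 with 1 sample left out. After rescaling they were 21, with 6 under no filter, 33 at a mean of at least 5 TPM, 5 under eBayes without trend and robust and 0 to 41 with 1 sample left out. The rescaled counts without treated replicate 1 were 159, 37 and 0, and the cause was not tested. Of the 754 calls without mitochondrially encoded genes, 183 were among the 197. Quantile normalization brought the change of Mt-co3 to 0.00 and that of Cox8b to 0.0496, since it fixes the value at each rank. With 1 sample left out the difference in mitochondrial share was 1.22 to 2.68 percentage points, that of the Myh7 to Myh6 ratio 1.18 to 1.34 and that of the Mt-atp8 to Mt-atp6 ratio -1.18 to -1.03. Of the 47 named genes called, 21 passed under every alternative run. Replicate numbers did not pair samples: same-numbered lean and treated samples correlated in their deviations at -0.05, 0.04, -0.08 and 0.02, and 1 of 4 matched its own number best. With the replicate number as a block, 137 genes were called as deposited and 200 after rescaling. The depth behind TPM is unknown, so the counting error of low genes is too.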

Other observations

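Called genes were more abundant than the average gene when they were lower in treated hearts. As deposited, the 105 genes called lower had a median lean level of 24.8 TPM and the 92 called higher one of 7.32 TPM, beside 4.995 TPM over all kept genes. After rescaling the medians were 31.0 TPM for the 166 lower and 8.53 TPM for the 80 higher genes. The largest changes of all belonged to genes with placeholder symbols, singled out after their values were seen. AABR07046778.1 was at 6455, 4927, 4078 and 2803 TPM in lean and 289, 1085, 700.3 and 314 TPM in treated hearts, with untreated obese hearts spread from 863 to 6418 TPM (change -3.09, limma adjusted p = 0.0491). AC103090.1 was listed at 0 in 3 lean hearts and at 21.8 TPM in the fourth, at 11.04 to 58.6 TPM in untreated obese and at 47.2 to 108 TPM in treated hearts (limma adjusted p = 0.0398). As deposited each of these 2 calls was lost in 10 of 12 fits with 1 sample left out. After rescaling they were lost in 9 and 8 of 12. AC103090.1 entered the test only because of its treated values. The sources used here do not say what these transcripts are.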
